A study of Danio rerio with 16 samples.

Results

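A set of 10 genes that mark the lining of blood and lymph vessels was followed through whole zebrafish (Danio rerio) embryos: the receptor genes kdrl, kdr, flt4, tie1 and tek, the adhesion and surface genes cdh5, pecam1 and lyve1b, and the transcription factor genes fli1a and etv2. They were taken by their symbol from an expression table of 32513 rows, and all 10 had 1 row each. Embryos labelled 5G were exposed to radiofrequency radiation (RFR) of 3.5 GHz, at roughly 30 dBm, between 6 and 48 h after fertilization (hours post fertilization, hpf), and embryos labelled Control received none. Total RNA was taken at 120 hpf, days after the exposure, or at 48 hpf, when it ended, and each of the 4 groups (5G at 120 hpf, Control at 120 hpf, 5G at 48 hpf, Control at 48 hpf) has 4 libraries. The labels name no strain, no number of embryos in a library and no separate clutches, and every p-value below therefore speaks for the variation among 4 libraries a group, part or all of which may be technical.

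Endothelial cells line every vessel. In zebrafish the ETS factor Etv2 (also called Etsrp) starts the vascular programme in early mesoderm and Fli1a, of the same family, keeps it going. Kdrl and Kdr receive the growth factor Vegfa during sprouting, Flt4 receives Vegfc in venous and lymphatic sprouts, Tek and Tie1 form the angiopoietin receptor system, and cadherin 5 and Pecam1 hold neighbouring endothelial cells together.

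None of the 10 genes was called different between 5G and Control embryos, either at 120 hpf or at 48 hpf. Most of them were called between the developmental stages, as were 65.3% of all tested genes in 5G and 66.1% in Control embryos. In both exposed and unexposed embryos fli1a, etv2, lyve1b and flt4 fell at 120 hpf against 48 hpf. On the scale of the deposited values kdr, tie1 and kdrl rose, a direction that for kdr in Control embryos turned under quantile normalization. The summed level of the 10 genes was 45.9 to 50.9 FPKM (fragments per kilobase of transcript, scaled to the mapped fragments of the library) in 5G and 46.0 to 49.1 FPKM in Control embryos at 120 hpf. At 48 hpf the sums were 60.3 to 62.7 FPKM in 5G and 59.6 to 63.2 FPKM in Control embryos. The sums of the 2 treatments thus overlapped at each stage and the stages did not overlap. Mean sums were 48.0 FPKM in 5G and 47.1 FPKM in Control embryos at 120 hpf, against 61.6 and 61.5 FPKM at 48 hpf. The largest part of this fall lay in 1 gene, fli1a. Its means were 8.28 FPKM in 5G and 8.92 FPKM in Control embryos at 120 hpf, against 17.9 and 16.6 FPKM at 48 hpf. FPKM is relative to all RNA of the whole embryo. For a gene that fell, a smaller share of the cells expressing it and less RNA per cell therefore cannot be told apart.

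Library depth after the authors' filter was 39603976 to 49232542 reads. The mapped share was 66.19 to 67.58% in the 120 hpf libraries and 69.37 to 71.78% in the 48 hpf libraries. No library lacked a member: the lowest value of any was 0.95 FPKM (kdr in Control 48 hpf replicate 2). Members passed the filter on low values (0.5 FPKM in at least 4 libraries) without exception, as did 23026 rows of the table. Between replicates the coefficient of variation of a member ranged from 2.45 to 30.4%, and its median within a group (10.5 to 13.7%) lay close to that of all tested genes between 1 and 20 FPKM (13.4 to 14.3%).

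**Figure D1:**
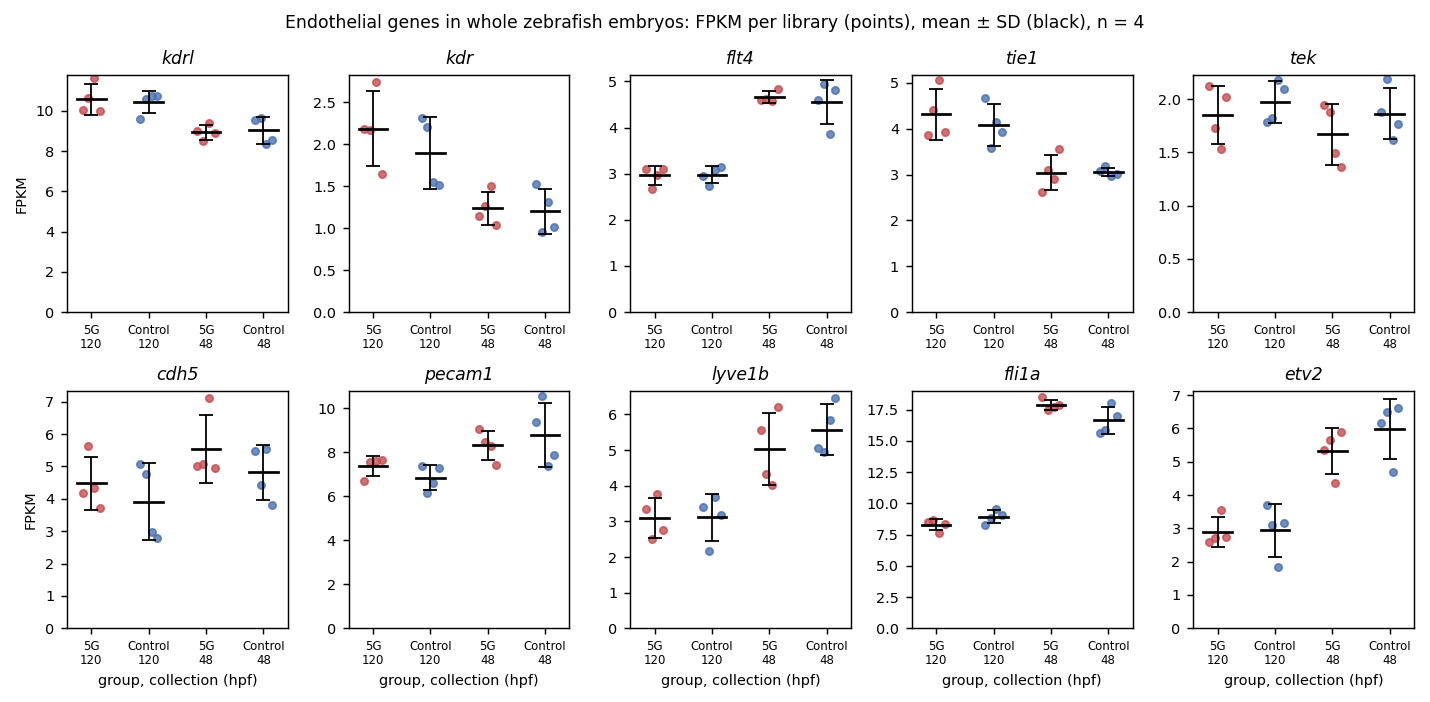
FPKM of the 10 endothelial genes in each library (points; red 5G, blue Control) with the group mean and SD (black, n = 4) at 120 hpf and at 48 hpf; each vertical axis starts at 0. The fli1a libraries lie between 7.62 and 9.54 FPKM at 120 hpf and between 15.64 and 18.46 FPKM at 48 hpf, whereas red and blue points of the same stage overlap in every panel.

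The Vegf receptor genes split by stage. The gene kdrl (NCBI gene ID 796537), the receptor gene most used as a reporter of zebrafish vessels, stood at 10.03, 10.64, 11.64 and 9.99 FPKM in 5G replicates 1 to 4 and at 9.61, 10.58, 10.74 and 10.74 FPKM in Control replicates 1 to 4 at 120 hpf. Libraries of 48 hpf gave 8.98, 8.5, 9.4 and 8.88 FPKM in 5G and 9.53, 9.66, 8.36 and 8.55 FPKM in Control embryos. All 5G values at 120 hpf exceeded those at 48 hpf, but Control replicate 1 at 120 hpf lay among the 48 hpf Control libraries. The rise was small, 0.23 ± 0.075 log2 units (SE) in 5G and 0.20 ± 0.075 in Control embryos (limma, adjusted p = 0.0135 and 0.0285). In Control embryos it was not called without Control 120 hpf replicate 2 (limma adjusted p = 0.0602), 3 (0.0655) or 4 (0.0669), without Control 48 hpf replicate 3 (0.0878) or 4 (0.0762), within replicates 1 to 3 (0.173), or with only the Control libraries in the fit (0.0571). Median-ratio scaling ended the call in 5G (0.116) and in Control embryos (0.433).

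Its paralog kdr (ID 554230) was the lowest of the 3 Vegf receptor genes, with 2.18, 2.17, 2.74 and 1.65 FPKM in 5G and 2.31, 2.21, 1.55 and 1.51 FPKM in Control embryos at 120 hpf. The 48 hpf values were 1.14, 1.27, 1.5 and 1.04 FPKM in 5G and 1.53, 0.95, 1.31 and 1.01 FPKM in Control embryos. In 5G embryos the stages were fully apart, while in Control embryos the highest value at 48 hpf (1.53) lay just above the lowest at 120 hpf (1.51). The rise was 0.62 ± 0.161 log2 units in 5G (limma adjusted p = 0.00287) and 0.49 ± 0.161 in Control embryos (0.0131).

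The Vegfc receptor gene flt4 (ID 30121) moved the other way. It was at 3.1, 2.66, 2.98 and 3.11 FPKM in 5G and 2.95, 2.74, 3.08 and 3.15 FPKM in Control embryos at 120 hpf. Embryos of 48 hpf had 4.6, 4.62, 4.57 and 4.84 FPKM in 5G and 4.59, 4.94, 3.87 and 4.81 FPKM in Control embryos. Every library at 120 hpf lay below every library at 48 hpf, and flt4 fell by 0.58 ± 0.088 log2 units in 5G (limma adjusted p = 2.39e-05) and by 0.53 ± 0.088 in Control embryos (5.14e-05). Within a library kdrl was 3.21 to 4.0 times as high as flt4 in 5G and 3.26 to 3.86 times in Control embryos at 120 hpf, against 1.83 to 2.06 times in 5G and 1.78 to 2.16 times in Control embryos at 48 hpf. FPKM is per length, so these ratios compare transcript levels of different genes. A ratio within a library is the same under scaling by 1 factor per library, but not under quantile normalization.

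Of the angiopoietin receptor genes, tie1 changed with stage and tek was not called. The gene tie1 (ID 30746), for an orphan receptor that pairs with Tek, had 3.87, 4.4, 5.06 and 3.92 FPKM in 5G and 4.67, 3.59, 4.14 and 3.93 FPKM in Control embryos at 120 hpf. At 48 hpf tie1 had 2.63, 3.1, 2.9 and 3.55 FPKM in 5G and 3.07, 3.18, 2.96 and 3.01 FPKM in Control embryos. The stages did not overlap within either treatment, and tie1 rose by 0.44 ± 0.106 log2 units in 5G (limma adjusted p = 0.00166) and 0.36 ± 0.106 in Control embryos (0.00676). The angiopoietin receptor gene tek (ID 30747) had 2.12, 1.73, 1.53 and 2.02 FPKM in 5G and 1.79, 1.82, 2.18 and 2.1 FPKM in Control embryos at 120 hpf. At 48 hpf tek had 1.95, 1.88, 1.49 and 1.36 FPKM in 5G and 1.88, 2.19, 1.62 and 1.77 FPKM in Control embryos. These 4 sets of values overlapped, and the tek log2 fold change over the stages was 0.12 in 5G (95% confidence interval -0.15 to 0.38) and 0.07 in Control embryos (-0.20 to 0.33).

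Among the adhesion genes, cdh5 (ID 445471), which encodes the cadherin of endothelial junctions, had the widest replicate spread of any member in Control embryos at 120 hpf. It stood at 4.19, 5.64, 4.35 and 3.73 FPKM in 5G and 5.08, 4.77, 2.98 and 2.79 FPKM in Control embryos at 120 hpf. In 48 hpf embryos cdh5 was at 5, 5.08, 7.12 and 4.95 FPKM in 5G and 5.48, 4.42, 5.54 and 3.82 FPKM in Control embryos. The stages overlapped in both treatments, and the log2 fold changes of cdh5, -0.28 ± 0.184 in 5G and -0.30 ± 0.184 in Control embryos, were not called (limma adjusted p = 0.199 and 0.167).

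The platelet and endothelial adhesion gene pecam1 (ID 569386, named pecam1a in the current RefSeq annotation) had 6.7, 7.55, 7.61 and 7.63 FPKM in 5G and 7.36, 6.16, 6.6 and 7.27 FPKM in Control embryos at 120 hpf. At 48 hpf it had 9.06, 8.46, 8.29 and 7.43 FPKM in 5G and 9.35, 10.57, 7.37 and 7.86 FPKM in Control embryos. In Control embryos the stages did not overlap, though by only 0.01 FPKM, and pecam1 fell by 0.33 ± 0.105 log2 units (limma adjusted p = 0.0115). In 5G embryos they overlapped, with a log2 fold change of -0.16 ± 0.105 (0.19). The stage changes of pecam1 in 5G and Control embryos are not shown to differ, since the test of that difference gave 0.17 ± 0.148 log2 units (limma adjusted p = 0.886).

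The gene lyve1b (ID 564249) encodes a hyaluronan receptor of lymphatic and venous endothelium. Its values were 3.35, 2.51, 3.77 and 2.76 FPKM in 5G and 3.41, 2.16, 3.69 and 3.18 FPKM in Control embryos at 120 hpf. At 48 hpf they were 5.56, 4.34, 4.03 and 6.2 FPKM in 5G and 5.05, 4.94, 5.84 and 6.45 FPKM in Control embryos. No library at 120 hpf reached the lowest at 48 hpf. The gene fell by 0.62 ± 0.163 log2 units in 5G (limma adjusted p = 0.00328) and by 0.76 ± 0.163 in Control embryos (0.000591). Its level was near that of flt4, the other venous and lymphatic gene of the set, but also near that of etv2. The lyve1b to flt4 ratio was 0.887 to 1.27 in 5G and 0.788 to 1.198 in Control embryos at 120 hpf, and 0.882 to 1.28 in 5G and 1.0 to 1.51 in Control embryos at 48 hpf. At 120 hpf lyve1b averaged 3.10 FPKM in 5G and 3.11 FPKM in Control embryos, and etv2 2.90 and 2.945 FPKM. At 48 hpf lyve1b averaged 5.03 and 5.57 FPKM, and etv2 5.32 and 5.985 FPKM.

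As deposited, the ETS factor genes had the largest stage changes of the 10. Under other processing settings lyve1b in Control embryos went as low as -1.05 log2 units, where fli1a went no lower than -0.98. At 120 hpf fli1a (ID 30619, fli1 in the current RefSeq annotation), which is expressed in endothelium and also in neural crest derivatives of the head, stood at 8.52, 8.63, 7.62 and 8.36 FPKM in 5G and 8.25, 8.85, 9.54 and 9.04 FPKM in Control embryos. At 48 hpf it stood at 18.46, 17.43, 17.69 and 17.87 FPKM in 5G and 15.64, 15.86, 18.03 and 17 FPKM in Control embryos. The stages lay far apart, and fli1a fell by 1.07 ± 0.069 log2 units in 5G (limma adjusted p = 1.15e-09) and by 0.86 ± 0.069 in Control embryos (1.49e-08). It made up 17.3% of the summed level of the 10 genes in 5G and 19.0% in Control embryos at 120 hpf, against 29.0% in 5G and 27.1% in Control embryos at 48 hpf.

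Transcripts of etv2 (ID 555766, etsrp in the current RefSeq annotation) were at 2.59, 2.7, 3.56 and 2.75 FPKM in 5G and 3.7, 3.1, 1.83 and 3.15 FPKM in Control embryos at 120 hpf. At 48 hpf they were at 5.36, 5.66, 4.36 and 5.9 FPKM in 5G and 6.15, 6.49, 4.68 and 6.62 FPKM in Control embryos. Replicate 3 was the lowest etv2 library at 48 hpf in both treatments, yet above all libraries at 120 hpf. The fall was 0.78 ± 0.165 log2 units in 5G (limma adjusted p = 0.00059) and 0.93 ± 0.165 in Control embryos (0.000105).

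The comparison of 5G with Control embryos asks whether the exposure changed these genes, and it gave no call at either stage. At 120 hpf limma called 0 of 10 members (background 0% of the 23026 genes tested), and 0 of 10 had an unadjusted p under 0.05 (4.13% of all genes). At 48 hpf it also called 0 of 10 (background 0.00434%), with 0 of 10 at an unadjusted p under 0.05 (9.47% of all genes). The 5G and Control libraries overlapped for all 10 members at both stages, where 2.11% of all genes at 120 hpf and 4.27% at 48 hpf did not overlap. The log2 fold change was positive for 7 of 10 members at 120 hpf (48.9% of all genes) and 4 of 10 at 48 hpf (60.5%), with medians of 0.01 and -0.01 log2 units.

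The intervals bound what these libraries could have shown. For kdrl the 95% confidence interval of the ratio of 5G to Control ran from 0.908 to 1.13 at 120 hpf and from 0.889 to 1.11 at 48 hpf, and for fli1a from 0.842 to 1.03 at 120 hpf and from 0.969 to 1.19 at 48 hpf. For flt4 it ran from 0.874 to 1.13 at 120 hpf and from 0.900 to 1.17 at 48 hpf. The widest upper bounds belonged to cdh5, 1.51 at 120 hpf and 1.49 at 48 hpf, on fold changes of 0.20 ± 0.184 and 0.18 ± 0.184 log2 units. Leaving out 1 library moved that of cdh5 at 120 hpf to between 0.08 (without Control replicate 4) and 0.33 (without Control replicate 1), with 0.10 without 5G replicate 2 and 0.10 without Control replicate 3. At 48 hpf it moved to between 0.07 (without 5G replicate 3) and 0.25 (without Control replicate 3), with 0.09 without Control replicate 4. The lowest bounds were those of etv2, 0.787 at 120 hpf and 0.706 at 48 hpf. For kdr, tek, tie1, pecam1 and lyve1b the bounds lay between 0.712 and 1.42 over both stages.

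**Figure D2:**
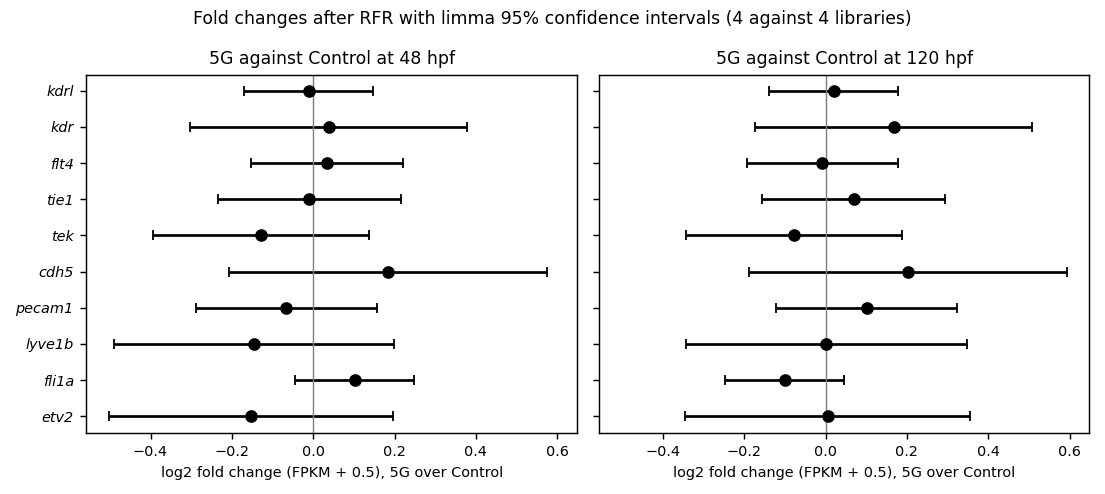
Log2 fold changes of FPKM + 0.5 in 5G over Control embryos for the 10 genes at 48 hpf (left) and 120 hpf (right), with limma's 95% confidence intervals (4 against 4 libraries). Every interval spans 0, and the intervals of kdrl, flt4 and fli1a are narrower than those of cdh5, etv2, lyve1b and kdr.

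The 5G effect was also compared between the stages, which is the same contrast as the difference between the developmental changes of 5G and Control embryos. Limma called 0 of 10 members (background 0%) and 0 of 10 had an unadjusted p under 0.05 (6.84% of all genes). The smallest p was that of fli1a, which averaged 8.28 ± 0.455 FPKM in 5G and 8.92 ± 0.533 FPKM in Control embryos at 120 hpf, and 17.9 ± 0.437 FPKM in 5G and 16.6 ± 1.11 FPKM in Control embryos at 48 hpf (SD, n = 4 each). The difference between these effects was -0.20 ± 0.098 log2 units (limma adjusted p = 0.729).

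For stage, limma called 7 of 10 members in 5G embryos (background 65.3%) and 8 of 10 in Control embryos (background 66.1%), a share close to that of all genes. By direction, 3 rose and 4 fell in 5G embryos, where 36.1% of all genes rose and 29.2% fell. In Control embryos 3 rose and 5 fell, where 38.3% of all genes rose and 27.9% fell. Libraries of the stages did not overlap for kdrl, kdr and tie1 (3 higher, 32.2% of all genes) and for flt4, fli1a, etv2 and lyve1b (4 lower, 26.3%) in 5G embryos. In Control embryos this held for tie1 (1 higher, 34.7%) and for flt4, fli1a, pecam1, etv2 and lyve1b (5 lower, 25.1%). The median member had a log2 fold change of -0.22 in 5G and -0.31 in Control embryos, whereas the median of all genes was 0.08 and 0.12. The 2 stage comparisons share their libraries with those of 5G against Control, so they are not independent of them.

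How libraries are scaled bears on the smaller stage changes. In Control embryos the median log2 fold change of all genes was 0.12 as deposited, 0.02 after median-ratio scaling and -0.14 after quantile normalization. The genes called there were 8811 higher and 6416 lower as deposited, 7873 higher and 7486 lower after median-ratio scaling, and 6336 higher and 8906 lower after quantile normalization. Set against that median, kdrl, kdr and tie1 were higher at 120 hpf in Control embryos by 0.07, 0.37 and 0.24 log2 units as deposited, and by 0.26, 0.13 and 0.17 after quantile normalization. On the unadjusted log2 scale, kdr turned slightly negative in Control embryos under quantile normalization (-0.01, limma adjusted p = 0.946), and tie1 (0.03, 0.807) and kdrl (0.12, 0.183) were no longer called. For tek the quantile-normalized change in Control embryos was -0.40 (limma adjusted p = 0.0227), and for cdh5 it was -0.58 (0.0107). The falls of fli1a, etv2, lyve1b and flt4 were called in 5G and in Control embryos under each of the 28 other settings tried, and that of pecam1 in Control embryos likewise.

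**Figure D3:**
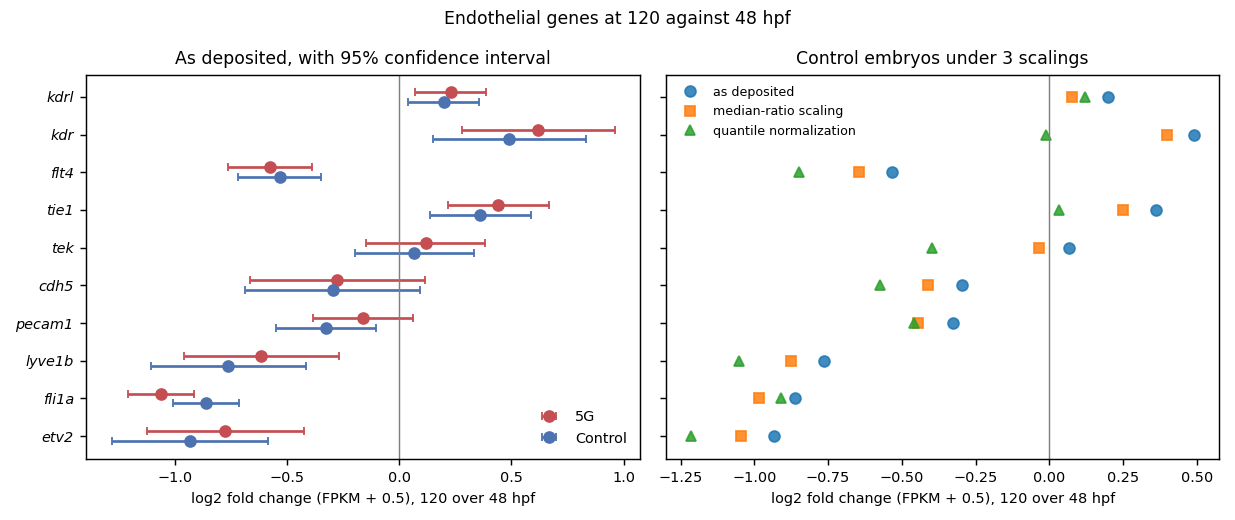
Log2 fold changes of FPKM + 0.5 at 120 over 48 hpf. The left panel gives 5G (red) and Control (blue) with 95% confidence intervals, and the right panel gives Control embryos as deposited, after median-ratio scaling and after quantile normalization: fli1a, etv2, lyve1b and flt4 stay left of 0 throughout, while kdr moves from 0.49 as deposited to -0.01 after quantile normalization.

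In the order of levels at 120 hpf, kdrl led with 10.6 ± 0.77 FPKM in 5G and 10.4 ± 0.544 in Control embryos (SD, n = 4). It was followed by fli1a and then by pecam1 at 7.37 ± 0.45 FPKM in 5G and 6.85 ± 0.57 in Control embryos. At 48 hpf fli1a led and kdrl came second with 8.94 ± 0.37 FPKM in 5G and 9.02 ± 0.665 in Control embryos. Neighbours in the order whose libraries overlapped at 48 hpf in both treatments were kdrl and pecam1, and the run of cdh5, etv2, lyve1b and flt4. At 120 hpf the libraries of lyve1b, flt4 and etv2 overlapped in both treatments, as did those of cdh5 and tie1, and tek and kdr shared the lowest places. By the mean in 5G embryos, kdrl was above 73.2% of all tested genes at 120 hpf and tek above 26.7%.

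Over the 16 libraries the profiles of kdrl and tie1 were the most alike within the set: their log2(FPKM + 0.5) values, each centred on its own mean, differed by a root mean square of 0.157. The pairs kdrl and tek (0.177) and flt4 and pecam1 (0.202) followed, and kdr and fli1a lay farthest apart (0.800). Outside the set, the genes nearest to kdrl by this measure were snx18a (0.0509), encoding a sorting nexin, and tsc22d2 (0.0753). Those nearest to fli1a were si:dkey-276j7.1 (0.0672) and pou2f1b (0.0697), encoding a POU-domain factor, and those nearest to flt4 were ppp6c (0.0721), encoding a phosphatase subunit, and zgc:86598 (0.0792). For tie1 they were pdlim5b (0.0902) and mgat1a (0.102), and for tek shtn1 (0.0926) and naca (0.0968). For kdr the nearest gene was vps39 (0.0932), and LOC108179143 lay at 0.0888 from pecam1. The other near genes of kdr and pecam1 bear clone names. The nearest to cdh5 were shprh and LOC100535133, for etv2 zgc:162611 and hoxd13a, and for lyve1b eif2s2 and rnf168, at 0.131 to 0.152. The points share library and stage, and the measure takes no account of function.

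The ETS genes of the set have ETS neighbours. In the RefSeq gene order (assembly GRCz12tu, used for order only) fli1a lies beside ets1, and etv2 beside fli1rs, the gene listed as fli1b in the expression table. In Control embryos ets1 fell to 4.62 ± 0.294 FPKM at 120 hpf, against 8.06 ± 0.432 FPKM at 48 hpf (SD, n = 4; limma adjusted p = 1.27e-06). The gene fli1b fell to 3.59 ± 0.287 FPKM at 120 hpf, against 4.67 ± 0.24 FPKM at 48 hpf (0.00669). Neither was called between 5G and Control embryos (limma adjusted p of 1 for both at 120 hpf, 0.879 for ets1 and 0.809 for fli1b at 48 hpf). The neighbours on the other side did not all move so: caspa, beside etv2, was not called over the stages in Control embryos (0.0755), and kcnj1a.6, beside fli1a, fell (0.0353).

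Lists of other vascular genes are read against all tested genes, of which 66.1% were called over the stages in Control embryos (38.3% higher and 27.9% lower, with a median of 0.12). After quantile normalization 6336 of the 23026 genes were called higher there and 8906 lower, with a median of -0.14. Counts of the lists after quantile normalization are to be read against these. Ligands for vessel growth had 20 tested members, of which 5 rose and 8 fell at 120 against 48 hpf in Control embryos (2 and 12 after quantile normalization), with a median log2 fold change of -0.08. Apelin (apln), a peptide that guides sprouting cells, rose to 24.0 ± 2.04 FPKM at 120 hpf, against 14.4 ± 1.32 FPKM at 48 hpf. The Tek ligand angpt1 fell to 2.16 ± 0.525 FPKM at 120 hpf, against 5.29 ± 0.679 FPKM at 48 hpf, and the Notch ligand jag1a fell to 1.32 ± 0.066 FPKM, against 5.49 ± 0.859 FPKM (limma adjusted p from 1.69e-08 to 1.54e-06 for these 3 genes).

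In a further list, of 27 other endothelial receptors and coreceptors, 4 rose and 13 fell in the same comparison (2 and 18 after quantile normalization), with a median of -0.24. The roundabout receptor gene robo4 fell to 5.50 ± 0.284 FPKM at 120 hpf, against 19.4 ± 2.71 FPKM at 48 hpf, and the chemokine scavenger receptor gene ackr3b fell to 22.1 ± 1.79 FPKM, against 38.0 ± 1.49 FPKM. The receptor gene notch1a, which is also active in neural progenitors, fell to 5.95 ± 0.778 FPKM at 120 hpf, against 33.2 ± 6.97 FPKM at 48 hpf. Of the 25 tested genes in a list of other endothelial transcription factors 3 rose and 12 fell (2 and 16 after quantile normalization), with a median of -0.27. This list also holds heg1, which encodes a membrane protein. The venous factor gene nr2f2 fell to 33.9 ± 0.965 FPKM at 120 hpf, against 70.0 ± 2.17 FPKM at 48 hpf, and nr2f1b fell to 3.02 ± 0.128 FPKM, against 9.53 ± 1.202 FPKM. The forkhead gene foxc1a fell too, to 13.4 ± 1.30 FPKM at 120 hpf, against 22.3 ± 1.99 FPKM at 48 hpf. Levels in whole embryos do not show which cells the transcripts of nr2f2, nr2f1b and foxc1a came from.

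Junction, surface and scavenger genes of vessels went both ways, 13 rising and 15 falling of 39 (13 and 17 after quantile normalization), with a median of -0.02. Those with the smallest p rose. The aquaporin gene aqp8a.1 reached 48.4 ± 9.01 FPKM at 120 hpf, against 6.81 ± 0.831 FPKM at 48 hpf. For plvapa (plvap in the table), which builds the diaphragms of fenestrated endothelium, the values were 6.20 ± 0.498 FPKM at 120 hpf, against 0.798 ± 0.244 FPKM at 48 hpf. The glucose transporter gene slc2a1a, expressed at the blood-brain barrier and in other tissues, reached 21.9 ± 2.88 FPKM at 120 hpf, against 3.87 ± 1.16 FPKM at 48 hpf (limma adjusted p from 4.29e-10 to 1.09e-08 for these 3).

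**Figure D4:**
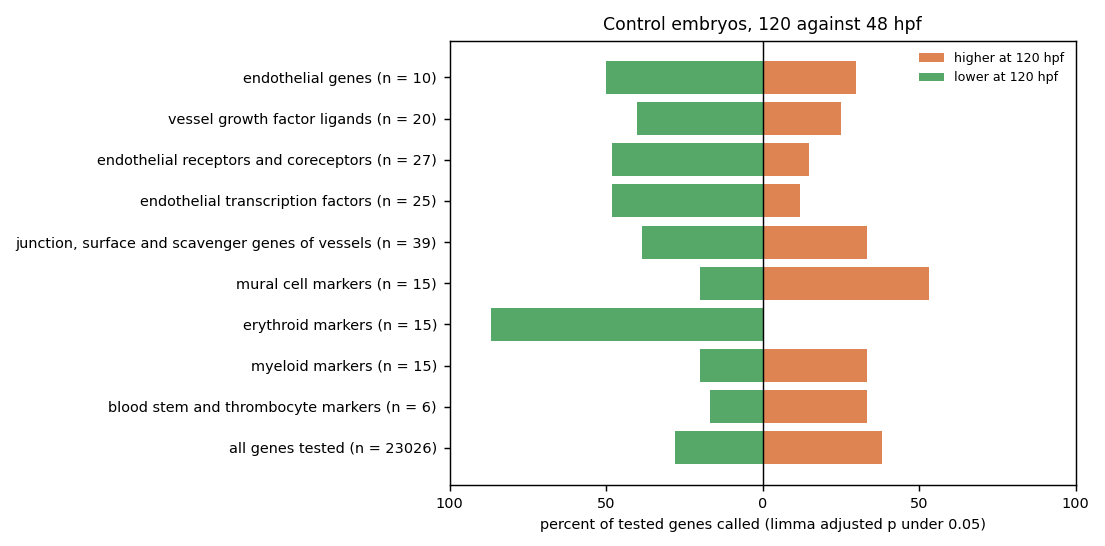
Percent of tested genes called higher (orange, to the right) or lower (green, to the left) at 120 against 48 hpf in Control embryos, for the 10 endothelial genes, the other vascular lists, marker lists of other cell types and all 23026 genes tested. All genes tested show 38.3% higher and 27.9% lower; among erythroid markers 13 of 15 are lower and 0 higher.

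Between 5G and Control embryos limma called 0 genes of these 4 vascular lists at 120 hpf and 0 at 48 hpf. At 48 hpf 23 of 25 genes of the transcription factor list had a positive fold change (median 0.07, where 60.5% of all genes were positive with a median of 0.04). An unadjusted p under 0.05 was found for 5 of them (9.47% of all genes). After quantile normalization 18 of 25 were positive there (11568 of all 23026 genes), and after median-ratio scaling 16 of 25 (11154 of all 23026). The summed level of this list at 48 hpf, as deposited, was 340.8 to 354 FPKM in 5G and 291 to 321 FPKM in Control embryos, without overlap. The share of other gene sets with such a gap was not measured, and sums were taken only as deposited. The mean sums were 347 and 312 FPKM. Part of their difference lay in nr2f2, at 77.1 FPKM in 5G and 70.0 FPKM in Control embryos, and in foxc1b and prox1a, given below. At 120 hpf the sums overlapped, at 238 to 261 FPKM in 5G and 227 to 277 FPKM in Control embryos. There 8 of 25 were positive (median -0.08, with 48.9% of all genes positive) and 3 had an unadjusted p under 0.05 (4.13% of all genes). The smallest p at 48 hpf belonged to foxc1b, a forkhead factor of vessels and head mesenchyme, at 26.5 ± 1.36 FPKM in 5G and 20.5 ± 0.456 FPKM in Control embryos (limma adjusted p = 0.25). Next came the lymphatic factor gene prox1a, also expressed in lens, liver and muscle, at 18.1 ± 2.83 FPKM in 5G and 13.1 ± 1.97 FPKM in Control embryos (0.251), and nfatc1 of the endocardium, at 3.50 ± 0.591 FPKM in 5G and 2.55 ± 0.156 FPKM in Control embryos (0.28). Without 5G 48 hpf replicate 1 limma called prox1a (adjusted p = 0.0196), foxc1b (0.0346) and nfatc1 (0.0404) higher in 5G embryos, while 389 genes were called in all and 0 of the 10 members.

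The receptor and coreceptor list had 13 of 27 positive fold changes at 120 hpf and 18 of 27 at 48 hpf, with 1 and 4 genes at an unadjusted p under 0.05. The ligands had 9 of 20 positive at 120 hpf and 7 of 20 at 48 hpf, with 0 and 1 genes at an unadjusted p under 0.05. Of the junction and surface genes 20 of 39 were positive at 120 hpf and 15 of 39 at 48 hpf, with 4 and 2 at an unadjusted p under 0.05. Of all genes 48.9% were positive at 120 hpf and 60.5% at 48 hpf, with 4.13% and 9.47% at an unadjusted p under 0.05. The tight junction gene cldn5b had 12.3 ± 1.24 FPKM in 5G and 9.83 ± 0.863 FPKM in Control embryos at 48 hpf (limma adjusted p = 0.328). The paralog of lyve1b, lyve1a, ranged from 1.39 to 7.99 FPKM in 5G and from 0.87 to 1.7 FPKM in Control embryos at 120 hpf (limma adjusted p of 1).

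Of the cells that share the vessels or adjoin them, erythroid, mural and blood stem cell and thrombocyte markers had summed levels that did not overlap between the stages in either treatment. Sums of myeloid markers did overlap, but only through replicate 3 at 120 hpf in each treatment. Summed erythroid markers (15 genes, among them globins, whose copies are alike in sequence) stood at 831 to 2272 FPKM in 5G and 886 to 1816 FPKM in Control embryos at 120 hpf, against 6961 to 11787 FPKM in 5G and 9356 to 12071 FPKM in Control embryos at 48 hpf. Of these 15 genes 13 fell in Control embryos and 0 rose. Mural cell markers (15 genes) summed to 447 to 475 FPKM in 5G and 462 to 523 FPKM in Control embryos at 120 hpf, against 209 to 299 FPKM in 5G and 235 to 373 FPKM in Control embryos at 48 hpf. In Control embryos 8 of them rose and 3 fell, against 38.3% and 27.9% of all genes. After quantile normalization 7 rose and 5 fell, where 6336 of all 23026 genes rose and 8906 fell. The median of the mural list was then -0.02 in place of 0.52, and that of all genes -0.14 in place of 0.12. The smooth muscle actin gene acta2, also expressed in visceral muscle, rose in Control embryos to 178 ± 8.58 FPKM at 120 hpf, against 4.86 ± 0.943 FPKM at 48 hpf. The mean mural sum in Control embryos was 492 FPKM at 120 hpf, against 293 FPKM at 48 hpf, so most of its rise lay in acta2.

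Of the myeloid markers (15 genes) 5 rose and 3 fell in Control embryos (2 and 3 after quantile normalization). Of all tested genes 38.3% rose there and 27.9% fell, and after quantile normalization 6336 of 23026 rose and 8906 fell. Myeloid markers summed to 59.6 to 122 FPKM in 5G and 54.9 to 136 FPKM in Control embryos at 120 hpf. At 48 hpf they summed to 94.2 to 139.6 FPKM in 5G and 111 to 142 FPKM in Control embryos. The highest sums at 120 hpf were those of replicate 3 in both treatments. The other libraries at 120 hpf had 59.6 to 65.1 FPKM in 5G and 54.9 to 64.2 FPKM in Control embryos, below every library at 48 hpf. Blood stem cell and thrombocyte markers (8 genes) summed to 19.0 to 22.8 FPKM in 5G and 18.1 to 21.2 FPKM in Control embryos at 120 hpf. Of these 6 were tested, with 2 rising and 1 falling in Control embryos (1 and 3 after quantile normalization). In Control embryos f5 rose to 6.2 FPKM at 120 hpf, against 3.8 FPKM at 48 hpf, and gfi1aa to 1.7, against 0.52 FPKM. The thrombocyte gene gp1bb fell to 1.5, against 2.5 FPKM. The mean sum in Control embryos was 19.75 FPKM at 120 hpf, against 16.7 FPKM at 48 hpf, so its rise lay in f5 and gfi1aa. The median log2 fold change of the 6 tested markers was 0.02 there, where that of all genes was 0.12. No marker of these 4 lists was listed at 0 in all libraries of a group. Between 5G and Control embryos limma called 0 of their members at either stage. An unadjusted p under 0.05 was found at 120 hpf for 2 of 15 erythroid and 1 of 15 mural markers (4.13% of all genes). At 48 hpf it was found for 4 of 15 mural markers (9.47% of all genes) and for no marker of the other lists. Of the 3 mural markers with the smallest p at 48 hpf, acta2 and tagln were lower in 5G embryos and foxf2a was higher (limma adjusted p = 0.267, 0.487 and 0.477). The sums of these 4 lists overlapped between the treatments at both stages except for the blood stem cell and thrombocyte markers at 48 hpf, at 14.2 to 15.4 FPKM in 5G and 15.4 to 17.9 FPKM in Control embryos, which came within 0.01 FPKM of each other. Here too the share of other gene sets with such a gap was not measured. The part of blood and mural cells in the stage changes of the 10 genes was not tested.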

How the data were processed

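Total RNA of whole embryos was sequenced in paired reads (DNBseq-G50, per the labels' protocols). Per the submitters' processing notes the tools included DESeq2, Bowtie2 and HISAT2, without version or role, and the genome build was GRCz11. The authors deposited FPKM with 2 decimals, per the file headers; the program behind them and its use of strand are not given in the sources used here. They also deposited summaries with counts of reads after filtering, raw read totals and the percent of reads mapped and of rRNA reads, per the file headers. The rRNA share was 0.15 to 3.2%.

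FPKM are not counts, so limma 3.58.1 (R 4.3.3) was fitted to log2(FPKM + 0.5), letting the variance follow the mean. All 16 libraries and the 23026 genes that reached 0.5 FPKM in 4 or more of them entered, with 1 mean per group and 12 residual degrees of freedom. Tests were two-sided, Benjamini-Hochberg adjusted over all genes, and a gene was called at an adjusted p under 0.05. Fold changes on this scale understate changes of low genes. Intervals are limma's 95% confidence intervals. The procedure was tested on data simulated with independent normal noise of limma's own spread, so the test does not bear on batches or other noise. In each simulation 100 genes were changed 2-fold and 100 were changed 1.5-fold. For 5G against Control at 120 hpf 96% of the 2-fold and 47% of the 1.5-fold changes were recovered. At 48 hpf these shares were 93% and 56%.

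The members and the 8 other lists (171 entries) were chosen with earlier results of these data known. By the table's symbols 160 entries matched, by current RefSeq symbols 10, and 1 stayed unmatched. An entry that reached fli1a was left out of its list. In those lists the text names genes among the 3 with the smallest p in each of 3 comparisons. Neighbouring genes were added after the data were seen. No sequence, promoter table or genome was used here, so motifs were not searched and no coordinates are given. Libraries of replicates 1 to 3 all had 47.48 M raw reads. Those of replicate 4 had other totals, and replicate 4 was treated as a batch of its own in other settings.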

Additional observations from a re-analysis of the deposited data

Results flagged for a closer look

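In 4 of the 40 sets of 4 libraries examined for the 10 genes, 1 library lay far from its 3 fellows, where chance gives about 1 in 20. These were kdrl in Control 120 hpf replicate 1 (9.61 FPKM, the others 10.6 to 10.7), cdh5 in 5G 48 hpf replicate 3 (7.12, the others 4.95 to 5.08), pecam1 in 5G 120 hpf replicate 1 (6.7, the others 7.55 to 7.63) and etv2 in 5G 120 hpf replicate 3 (3.56, the others 2.59 to 2.75). Control 120 hpf replicate 1 also had 3.2% rRNA reads, where the other 15 libraries had 0.15 to 0.3%, and the part of this in its kdrl level was not tested.

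Among the 59 genes of the other lists that the naming rule reached, 22 of 236 sets of 4 libraries had 1 that stood apart, again where chance gives about 1 in 20 (values in FPKM). In Control 48 hpf replicate 4 these were angpt1 (4.27), nfatc1 (2.78), alas2 (43.0) and cd74a (0.48). In other Control 48 hpf libraries they were flt1 (1.85) and runx1 (1.27) in replicate 3 and nr2f2 (66.8) in replicate 1. In Control 120 hpf libraries they were prox1a (12.7) in replicate 1, nrp2b (19.0) in replicate 2, tmem88a (3.6) and mpeg1.2 (26.4) in replicate 3, and cldn5b (4.52) and cd74a (1.07) in replicate 4. In 5G 48 hpf libraries they were aqp8a.1 (4.78) in replicate 1 and runx1 (1.53) in replicate 3. In 5G 120 hpf libraries they were aqp8a.1 (37.2) and hbae5 (4.2) in replicate 1, gata1a (0.47) in replicate 2, hbbe3 (0.48) and mpeg1.2 (27.1) in replicate 3, and prox1a (11.4) and hbbe1.2 (347) in replicate 4.

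The gene nr2f2, of the transcription factor list, was lower in every 5G than in every Control library at 120 hpf and higher in every one at 48 hpf, where 2.11% and 4.27% of all genes had no overlap. At 120 hpf it stood at 30.7 ± 1.21 FPKM in 5G and 33.9 ± 0.965 FPKM in Control embryos, and at 48 hpf at 77.1 ± 3.98 FPKM in 5G and 70.0 ± 2.17 FPKM in Control embryos (SD, n = 4). Neither difference was called (limma adjusted p of 1 at 120 hpf and 0.428 at 48 hpf). The test of the change between the stages gave -0.28 ± 0.079 log2 units and did not pass after adjustment (limma adjusted p = 0.583).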

How the results depend on the processing

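The number of endothelial genes called stayed at 0 between 5G and Control embryos under all 28 other settings at each stage, and lay between 6 and 7 over the stages in 5G and between 7 and 8 in Control embryos. Which genes were called over the stages changed with the setting. In 5G embryos kdr (highest limma adjusted p = 0.217), tie1 (0.146) and kdrl (0.116) were each called in 27 of the 28, and cdh5 in 1. In Control embryos kdr and tie1 were each called in 27, kdrl in 19, cdh5 in 2 and tek in 1. Fold changes of 5G over Control near 0 changed sign with the processing, none of them past the threshold. At 120 hpf these were etv2 under quantile normalization (-0.00933), median-ratio scaling (-0.00373) and library weights (-0.061), lyve1b under quantile normalization (-0.00208) and median-ratio scaling (-0.00793), and under library weights kdrl (-0.014) and flt4 (0.010). At 48 hpf they were kdr under quantile normalization (-0.046), median-ratio scaling (-0.00497) and library weights (-0.0041), flt4 under quantile normalization (-0.019) and median-ratio scaling (-0.022), kdrl under scaling to equal totals (0.00887), and tie1 under scaling to equal totals (0.00822) and library weights (0.013). The difference of the 5G effect between the stages turned for flt4 under quantile normalization (0.00185) and median-ratio scaling (0.00465), for cdh5 under equal totals (-0.000676) and for tek within replicates 1 to 3 (-0.012). Over the stages kdr in Control embryos turned under quantile normalization (-0.012), as did tek in Control embryos (-0.400, and -0.034 under median-ratio scaling) and in 5G embryos (-0.304). The cause was not tested.

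Leaving out 1 library at a time, the 5G effect at 120 hpf ranged from -0.172 to 0.111 for etv2, -0.042 to 0.035 for flt4, -0.025 to 0.045 for kdrl, -0.138 to 0.083 for lyve1b, 0.076 to 0.330 for cdh5 and -0.00277 to 0.129 for tie1. At 48 hpf it ranged from -0.034 to 0.072 for flt4, -0.034 to 0.128 for kdr, -0.045 to 0.021 for kdrl, -0.141 to 0.023 for pecam1, 0.066 to 0.249 for cdh5 and -0.076 to 0.048 for tie1. The difference between the stages ranged from -0.107 to 0.147 for cdh5, -0.019 to 0.264 for etv2, -0.080 to 0.026 for flt4, -0.014 to 0.065 for kdrl and -0.020 to 0.119 for tek. For the transcription factor list, 0 to 3 genes were called at 48 hpf, and 389 genes in all without 5G 48 hpf replicate 1, against 1 with all libraries. Quantile normalization left 5 myeloid markers called over the stages in Control and 4 in 5G embryos, and 5 blood stem cell and thrombocyte markers in 5G embryos. With no filter on low values 5 of the last were called in Control embryos.

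Groups share replicate numbers. The deviations of same-numbered 5G and Control libraries correlated at 0.0578 to 0.276 at 120 hpf and -0.111 to 0.308 at 48 hpf. Those of different numbers correlated at -0.281 to 0.283 and -0.230 to 0.333. As these ranges overlapped, the numbers were not taken to pair the libraries. At 120 hpf, however, every same-numbered correlation was positive and most of the different-numbered ones were negative, so some tie by number is not excluded. With the replicate block 0 endothelial genes were called between 5G and Control at either stage, 7 over the stages in 5G and 8 in Control embryos. FPKM carry no count per gene, so counting error at the low levels of kdr and tek is unknown.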
